A study of Mus musculus with 9 samples.

Results

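The apical polarity genes described here are Pard3, Pard6b, Prkci, Prkcz, Ezr, Msn, Rhoa and Cdc42, chosen by name from the 53819 rows that each count file lists. All 8 were found, and all 8 were among the 12488 genes with enough counts to be tested. RNA came from C57BL/6J mouse embryos at the morula stage, made by in vitro fertilization by the Nakagata procedure in CARD media. The groups differ in the sires' alcohol intake before conception (Control, 6% EtOH or 10% EtOH), and each of these 3 groups had 3 libraries. The dams' treatment, the ages, the route and length of exposure, and the numbers of sires and embryos behind a library are not stated. The libraries may share sires or embryos, so p-values speak only of library-to-library spread, some of which may be technical.

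Cell polarity appears in the mouse embryo as the blastomeres compact. The PAR proteins and atypical protein kinase C gather with ezrin and actin in a cap at the outer, contact-free surface of each outer cell. Small GTPases set up that cap by way of the actomyosin cortex. The apical cap then keeps Hippo signalling low in outer cells, which become trophectoderm, while inner cells that lack it become the inner cell mass. In RNA from whole embryos, fewer cells of a kind and less RNA in each cell cannot be told apart, and the place of a protein within a cell is not measured.

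The 9 libraries held 6263465 to 27619281 gene counts. In 4 libraries (control 2, 6% ethanol 1, 10% ethanol 1 and 10% ethanol 2) the header of the count column names RNA STAR, and these are called long-header libraries below. The other 5 have a short header, and they were also the shallower ones, at 6263465 to 11026334 counts. Controls and the 6% group had 1 long-header library each and the 10% group had 2. Nothing in the labels says what the header form stands for, so values are set out by it as well as by group. Of 10 fixed morula and trophectoderm markers, 9 or 10 had counts in each library. Their sum was 1053 to 1958 CPM (counts scaled to library size, the usual counts-per-million unit) in controls and 1110 to 1450 in the long-header ethanol libraries. It was 571, 612 and 599 CPM in the short-header ethanol libraries, 6% ethanol 2, 6% ethanol 3 and 10% ethanol 3. Markers of cumulus and granulosa cells summed to at most 2.20 CPM in a library, those of sperm and testis to at most 2.93, and those of blood to at most 0.145. Of the 9 cumulus and granulosa markers, Fshr, Inhba, Has2, Ptx3 and Cyp11a1 had no count in any library, Foxl2 had counts in 4, Tnfaip6 in 2 and Amh in 1, and Cyp19a1 stood at 2.19 CPM in 1. The sum of 5 oocyte markers was 3.38 to 7.16 CPM in controls, 0 to 17.3 at 6% and 7.42 to 27.6 at 10% ethanol, so that all 3 libraries of the 10% group lay above the controls. Mitochondrial genes likewise took 7.05 to 10.02 percent of counts in controls and 10.98 to 15.5 percent at 10% ethanol, with 7.36 to 12.3 percent at 6%. The part of these differences in the comparisons of sire groups was not tested.

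None of the 8 genes was called different between sire groups, at a threshold of 0.05 on the adjusted p. The test was edgeR's quasi-likelihood test with Benjamini-Hochberg adjustment over all tested genes. The measured differences were widest for Prkcz, which had low values in the 6% ethanol libraries, and for Msn, whose count was small in most libraries. Prkcz had 38.1 ± 27.3 CPM (SD, n = 3) in controls, 11.2 ± 10.2 with 6% ethanol and 32.3 ± 5.57 with 10% ethanol. Cdc42 was the steadiest, at 762 ± 84.6, 852 ± 201 and 743 ± 309 CPM in the same order. CPM use TMM-scaled library sizes (except in the marker sums), a scaling that assumes most genes to be alike between libraries.

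**Figure D1:**
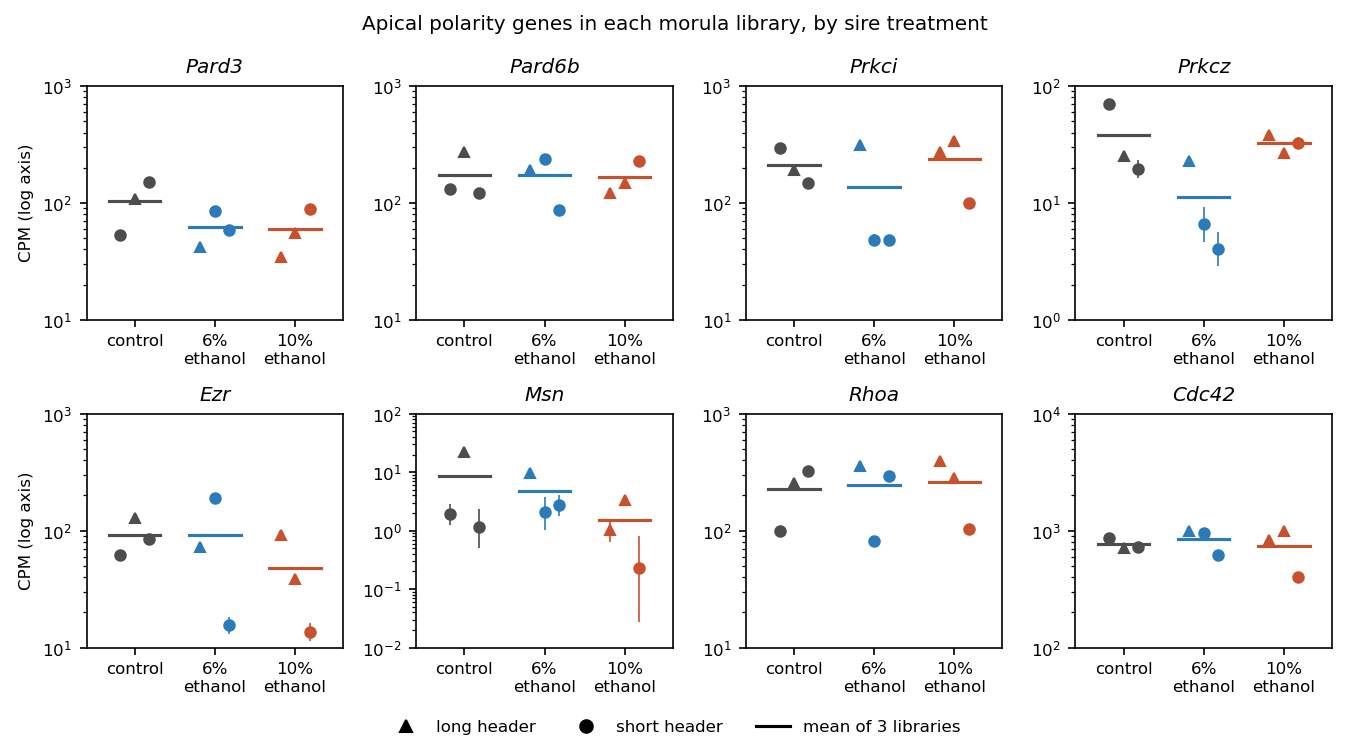
CPM of each of the 8 genes (log axis) in the 9 libraries, grouped by sire treatment, with triangles for long-header and circles for short-header libraries, bars for 95% Poisson counting intervals and a line at the mean of 3 libraries. In the Prkcz panel the 3 libraries of the 10% group lie above the 3 of the 6% group, and in every other panel the groups overlap.

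Compared per length of transcript, the 8 genes spanned a wide range. Cdc42, the GTPase that recruits and activates the PAR6 and atypical PKC pair, was highest, with a median of 394 CPM per kilobase of its longest annotated transcript (lowest library 189.6, highest 474). Rhoa followed at 54.9, Pard6b at 43.5, Prkci at 40.9, Ezr at 22.7, Pard3 at 10.1, Prkcz at 6.20 and Msn at 0.544 CPM per kilobase. Cdc42 stood above Rhoa in 9 of 9 libraries, and Prkcz above Msn in 9 of 9. Rhoa stood above Pard6b in only 5 of 9 and Pard6b above Prkci in 5 of 9, so these 3 levels were not separated beyond their spread. Prkci was above Ezr in 8, Ezr above Pard3 in 7 and Pard3 above Prkcz in 7 libraries. The longest Rhoa transcript, 5101 bases, is a retained-intron form. On the longest protein-coding form, 2197 bases, the median of Rhoa was 127 CPM per kilobase, still second, and above Pard6b in 7 of 9 libraries. For the other 7 genes the longest transcript is protein-coding.

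**Figure D2:**
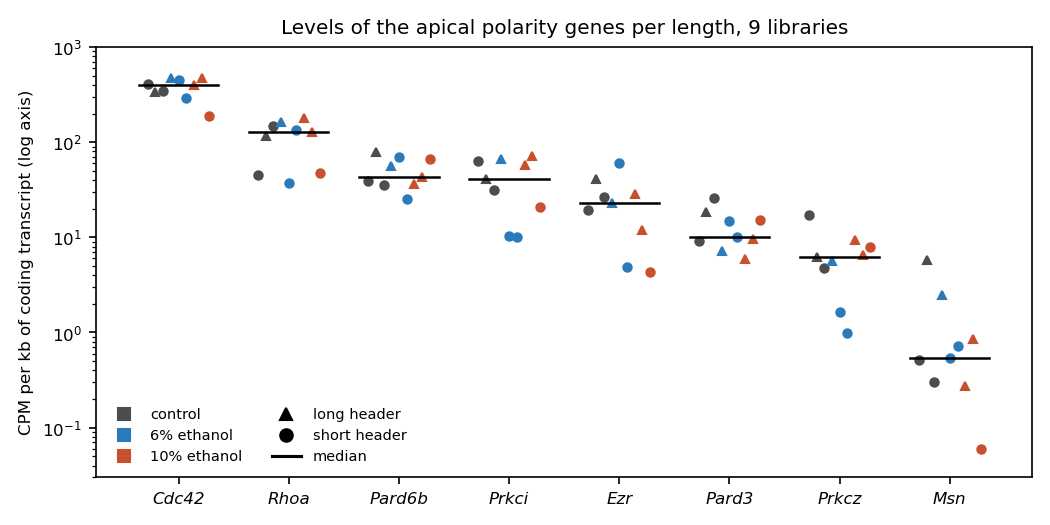
CPM per kilobase of the longest protein-coding transcript (log axis) for the 8 genes in order of their median (black line), with 1 point per library coloured by sire group and shaped by header form. Cdc42 has a median of 394 and Msn one of 0.544 CPM per kilobase, and the points of Rhoa, Pard6b and Prkci overlap.

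Pard3 and Pard6b encode the scaffolds of the apical complex. PAR3 marks and anchors the complex at the membrane, and PAR6 links atypical PKC to Cdc42. Pard3 had 53.1, 107 and 152 CPM in the controls, 42.1, 85.9 and 58.4 with 6% ethanol, and 34.1, 55.7 and 89.4 with 10% ethanol. The lowest control lay below some library of each ethanol group, so the groups overlapped. Pard3 had a log2 fold change of -0.75 ± 0.59 (SE) at 6% and -0.80 ± 0.59 at 10% ethanol, comparisons that share the control libraries. Their 95% intervals, -2.02 to 0.53 and -2.07 to 0.47, covered 0, and the adjusted p was 0.856 and 0.9999 (edgeR). Without control 3, the library with the most Pard3, the values were -0.43 and -0.44. Within short-header libraries they were -0.52 and -0.20, and within long-header libraries -1.35 and -1.26. Pard3 was the only gene of the 8 with its lowest value in a long-header library, 10% ethanol 1.

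Pard6b had 132, 270.2 and 122 CPM in the controls, 191, 239 and 86.7 with 6% ethanol, and 123, 148 and 228 with 10% ethanol. High and low values occurred in each group. Against control the log2 fold change was -0.02 ± 0.53 at 6% (95% interval -1.16 to 1.12) and -0.07 ± 0.53 at 10% ethanol (-1.22 to 1.07). Differences of up to about those bounds could not be told from 0 with these libraries. The direction turned with header form, with 0.34 and 0.84 within short-header and -0.50 and -1.01 within long-header libraries.

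The paralogs of these scaffolds were scarcer. Pard3b, the second PAR3 gene, had a single count over all 9 libraries. Of the summed CPM per kilobase of the PAR6 genes, taken on the longest protein-coding transcript, Pard6b made up 65.5 to 100 percent, with a median of 82.4. Pard6g held 16.3 percent in the median library. It had 61.5, 70.2 and 10.5 CPM in the controls, 35.5 CPM in 6% ethanol 1, no count in 6% ethanol 2 and 3, and 40.6, 27.4 and 0.567 CPM with 10% ethanol. The long-header libraries ran from 27.4 to 70.2 CPM, and 4 of the 5 short-header libraries lay at 10.5 CPM or below.

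Prkci and Prkcz encode the atypical PKC kinases iota and zeta, the enzymes of the apical complex, which phosphorylate basolateral proteins and keep them off the apical membrane. Prkci had 297, 193 and 147 CPM in the controls and 312, 48.1 and 47.8 CPM with 6% ethanol. With 10% ethanol it had 273, 337 and 99.0 CPM. The short-header libraries of the ethanol groups were the lowest 3 of the 9, while the long-header library of the 6% group was second only to 10% ethanol 2. The same 3 low libraries had the lowest sums of morula and trophectoderm markers, and whether this bears on Prkci was not tested. Fitted over all libraries, the log2 fold change was -0.64 ± 0.73 at 6% ethanol (95% interval -2.24 to 0.95, adjusted p = 0.892) and 0.15 ± 0.73 at 10% (-1.43 to 1.74). Without 6% ethanol 1 the 6% value was -2.17, and within long-header libraries alone it was 0.70. With header form as a term of the model it was -1.33, and the 10% value -0.73. Between the doses it was 0.80 ± 0.74 (-0.80 to 2.39), with 2.33 without 6% ethanol 1, 0.39 without 6% ethanol 2 and -0.04 within long-header libraries.

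Prkcz had 69.5, 25.3 and 19.6 CPM in the controls, 23.0, 6.65 and 4.06 with 6% ethanol, and 37.9, 26.8 and 32.3 with 10% ethanol. The lowest values, 6.65 and 4.06 CPM, stand for 35 and 37 counts, with 95% Poisson intervals of 4.64 to 9.26 and 2.86 to 5.59 CPM that cover counting error only. In those libraries, 6% ethanol 2 and 3, 13.5 and 8.42 percent of tested genes had no count, against at most 7.30 percent in the other 7, and the part of this in the low values was not tested. All 3 libraries of the 10% group lay above all 3 of the 6% group, as 6.05 percent of tested genes did. The log2 fold change between the doses was 1.52 ± 0.81 (95% interval -0.24 to 3.28, adjusted p = 0.806). Within long-header libraries, with 1 library at 6% ethanol, it was 0.48, and within short-header libraries, with 1 library at 10%, it was 2.61.

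The files also list Prkcz2, a pseudogene per RefSeq, which had 11, 198 and 38 counts in the controls, 32, 2 and 2 with 6% ethanol, and 25, 23 and 25 with 10% ethanol. How reads that match both were counted is not stated. They could have been split between the genes or left out, so the Prkcz values are uncertain by an unknown amount. In control 2 and 3, where it was largest, the Prkcz2 count was 28.1 and 28.4 percent of that of Prkcz.

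Against control, Prkcz had a log2 fold change of -1.76 ± 0.82 at 6% ethanol (95% interval -3.53 to 0.01, adjusted p = 0.800 by edgeR and 0.408 by DESeq2). It was -0.996 without control 1, the library with the highest Prkcz level, and -2.86 without 6% ethanol 1. In the long-header pair of libraries it was -0.14, and in short-header libraries -3.08. At 10% ethanol it was -0.24 ± 0.79 (-1.96 to 1.48), and 0.53 without control 1.

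The kinases had the smallest difference of pattern among pairs of the 8 genes, on a measure not scaled to each gene's own spread. After each gene was centred on its own mean log2 CPM, Prkci and Prkcz differed by a root mean square of 0.666 over the 9 libraries, Pard6b and Cdc42 by 0.672, and the median over all pairs of tested genes with a symbol and at least 10 CPM on average was 1.28. The SD of log2 CPM over the 9 libraries was 1.12 for Prkci and 1.25 for Prkcz, but 0.55 for Pard6b and 0.42 for Cdc42. Genes that vary little also differ little on this measure, so similar values need not mean equal likeness. The centred values share the library scaling, and libraries of both header forms enter them. Per kilobase Prkci exceeded Prkcz in each library, by 2.66-fold in 10% ethanol 3 to 11.8-fold in 6% ethanol 1. Prkci made up 78.7 to 86.8 percent of the pair in controls, 86.2 to 92.2 percent at 6% and 72.7 to 91.6 percent at 10% ethanol.

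The stretches of 250 bases that precede the annotated starts of these kinase genes are shown to set the paralogs side by side. They come from RefSeq, build GRCm38.p6, matched by symbol, and are given 5′ to 3′ on the strand of the gene. The Prkci window is chr3:30995521-30995770, plus strand. The Prkcz window is chr4:155361429-155361678, minus strand, the first of 3 start sites, which gene counts do not separate. Capitals mark GGAATG, the core that TEAD factors bind, or GCCNNNGGC, the palindrome that AP-2 factors bind, each searched on both strands.
Prkci: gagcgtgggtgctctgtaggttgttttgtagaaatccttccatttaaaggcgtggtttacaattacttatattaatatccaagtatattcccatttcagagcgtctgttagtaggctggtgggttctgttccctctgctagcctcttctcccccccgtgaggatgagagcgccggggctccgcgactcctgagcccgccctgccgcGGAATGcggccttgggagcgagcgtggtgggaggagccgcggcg
Prkcz: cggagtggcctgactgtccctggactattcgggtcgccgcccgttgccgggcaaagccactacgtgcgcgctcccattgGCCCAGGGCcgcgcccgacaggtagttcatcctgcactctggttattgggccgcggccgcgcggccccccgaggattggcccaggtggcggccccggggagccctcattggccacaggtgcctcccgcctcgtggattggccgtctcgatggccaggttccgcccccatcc
Prkci holds 1 TEAD core and no AP-2 palindrome, and Prkcz 1 AP-2 palindrome and no TEAD core. Of 32841 RefSeq windows of this length, 12.6 percent hold the first and 13.7 percent the second. Over the 12 windows of the 8 genes, the TEAD core was in 1 and the AP-2 palindrome in 6, which belong to Pard6b, Prkcz, Pard3, Rhoa and Msn. The windows of the 8 genes had 45.2 to 79.6 percent G and C, against a median of 52.4 percent over all windows, and the AP-2 letters are themselves rich in G and C. A match describes these letters and is not a binding site.

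Cdc42 and Rhoa encode the GTPase switches. Cdc42 binds PAR6 and turns on atypical PKC, and RhoA drives contraction of the actomyosin cortex, which brings the complex to the cell surface. Cdc42 had 859.5, 706 and 721 CPM in the controls, 987, 948 and 621 with 6% ethanol, and 831, 999 and 399.7 with 10% ethanol. Its highest library was 2.50 times its lowest, 10% ethanol 3. Its log2 fold change was 0.16 ± 0.43 at 6% (95% interval -0.77 to 1.09) and -0.04 ± 0.43 at 10% ethanol (-0.96 to 0.89), the narrowest intervals among the 8 genes. Within header forms the 10% value was -0.99 (short, with 1 library at 10%) and 0.37 (long).

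Rhoa had 99.5, 255 and 324 CPM in the controls, 359, 82.0 and 294 with 6% ethanol, and 397, 279.9 and 104 with 10% ethanol. The lowest library of each group, at 99.5, 82.0 and 104 CPM, had a short header. So did the highest control, control 3 at 324 CPM, and 6% ethanol 3 at 294 CPM. The log2 fold change was 0.12 ± 0.65 at 6% (-1.30 to 1.54) and 0.20 ± 0.65 at 10% ethanol (-1.22 to 1.62), and with header form as a term the 10% value was -0.30. Within short-header libraries the 10% value was -1.03, and within long-header libraries 0.40. The Rhoa pseudogenes listed as Rhoay-ps1, Rhoay-ps2 and Rhoay-ps3 drew 0, 6 and 2 counts over all libraries.

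Ezr and Msn encode ezrin and moesin, which with radixin (Rdx) form the ERM family that ties apical membrane to actin. Ezrin is the member known from the microvillar cap of the compacted mouse morula. Ezr had 61.5, 129 and 84.9 CPM in the controls, 71.8, 189 and 15.6 with 6% ethanol, and 90.9, 38.2 and 13.6 with 10% ethanol. The controls lay close together, and each ethanol group held a library below all of them. The highest library, 6% ethanol 2, had 13.9 times the level of the lowest, 10% ethanol 3. The log2 fold change was 0.01 ± 0.84 at 6% ethanol (95% interval -1.81 to 1.83), and -1.06 without 6% ethanol 2. Within short-header libraries it was 0.46, and within long-header libraries -0.84. At 10% ethanol it was -0.95 ± 0.85 (-2.78 to 0.89, adjusted p = 0.9999), with -0.50 without 10% ethanol 3 and -1.81 without 10% ethanol 1.

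Msn by library had 1.95, 22.5 and 1.17 CPM in the controls, 9.63, 2.09 and 2.74 with 6% ethanol, and 1.04, 3.28 and 0.227 with 10% ethanol. The counts behind these ran from 2 to 624, and the 2 counts of 10% ethanol 3 have a 95% Poisson interval of 0.242 to 7.22 counts. The level in control 2 was over all others. The log2 fold change was -0.82 ± 1.37 at 6% ethanol and -2.48 ± 1.44 at 10% (-5.59 to 0.64, adjusted p = 0.9999). Without control 2 these became 1.63 and -0.02, so the lower mean at 10% ethanol rested on that library. Krt18, a keratin of simple epithelia, likewise stood at 644 CPM in control 2 and at 23.9 to 99.1 CPM in the other 8 libraries.

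Within the ERM family, Ezr made up 57.4 to 66.0 percent of the CPM per kilobase in controls, 22.7 to 72.5 percent at 6% and 26.5 to 75.0 percent at 10% ethanol. Rdx made up 33.2 to 36.3 percent in controls, 26.8 to 74.0 percent at 6% and 24.3 to 71.6 percent at 10% ethanol. Rdx was the larger part in 6% ethanol 3, 10% ethanol 2 and 10% ethanol 3, and Ezr in the other 6 libraries. Msn held at most 8.25 percent in any library. The wider range of these shares in the ethanol groups was not tested.

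**Figure D3:**
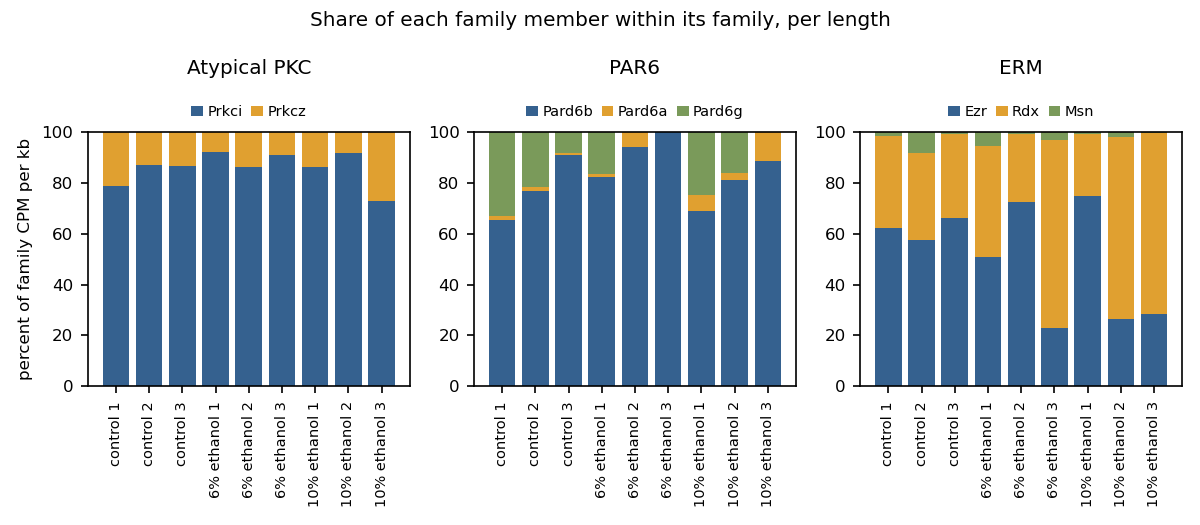
Percent of summed CPM per kilobase of the longest protein-coding transcript held by each paralog of the atypical PKC, PAR6 and ERM families in each of the 9 libraries (stacked bars from 0 to 100 percent). Prkci and Pard6b hold the larger part in every library, while Ezr falls under Rdx in 6% ethanol 3, 10% ethanol 2 and 10% ethanol 3.

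The windows that precede the start of the ERM genes are shown as the contrast between a well-expressed gene and one with few counts. The Ezr window is chr17:6782781-6783030, minus strand, and the Msn window chrX:96095795-96096044, plus strand, on the same build and with the same capitals.
Ezr: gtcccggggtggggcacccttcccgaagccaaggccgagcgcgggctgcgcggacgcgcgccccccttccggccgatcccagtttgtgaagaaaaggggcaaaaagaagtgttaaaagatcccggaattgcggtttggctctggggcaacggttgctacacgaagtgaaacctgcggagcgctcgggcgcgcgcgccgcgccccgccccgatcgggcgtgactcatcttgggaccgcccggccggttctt
Msn: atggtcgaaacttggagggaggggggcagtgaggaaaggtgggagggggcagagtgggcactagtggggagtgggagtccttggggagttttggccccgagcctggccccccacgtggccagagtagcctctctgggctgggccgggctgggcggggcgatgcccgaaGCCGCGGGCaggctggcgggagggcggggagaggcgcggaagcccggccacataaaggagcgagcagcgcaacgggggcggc
Ezr holds neither motif and 32 CpG dinucleotides, and Msn 1 AP-2 palindrome and 18 CpG dinucleotides.

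Read over all 8 genes, 0 were called at 6% ethanol against control, where edgeR called 0 percent of tested genes. Their log2 fold changes were below 0 for 5 of 8, with a median of -0.33, beside 50.5 percent below 0 and a median of -0.01 over the 12488 tested genes. At 10% ethanol, where 0 percent were called, 6 of 8 were below 0 with a median of -0.16, beside 52.9 percent and -0.05. Between the doses, where 0 percent were called, 5 of 8 were below 0 with a median of -0.06, beside 50.5 percent and -0.02. The 3 libraries of a group lay apart from those of control for none of the 8 genes at 6% or 10% ethanol, where 8.1 percent of tested genes (3.38 higher, 4.72 lower) and 8.07 percent (4.4 higher, 3.67 lower) did. Between the doses they lay apart for 1 of 8, Prkcz, beside 9.67 percent of tested genes (6.05 higher, 3.62 lower). No member had an unadjusted p under 0.05 in these comparisons, and 6.24, 2.14 and 5.33 percent of tested genes did. DESeq2 called 31, 10 and 34 genes in the same order, and none of the 7 members to which it gave an adjusted p (it gave Msn none). The spread within groups enters each of these tests, and its part in the lack of calls was not tested. The within-group SD of log2 CPM was 0.46 for Cdc42, 0.63 for Pard6b, 0.67 for Pard3, 0.93 for Prkcz, 1.02 for Rhoa, 1.09 for Prkci, 1.34 for Ezr and 1.72 for Msn, and its median over all tested genes was 1.18. Among genes within 1 log2 unit of the same level, the SD over 9 libraries of Prkci lay at the 90.7th percentile, that of Ezr at the 89.0th and that of Cdc42 at the 25th.

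**Figure D4:**
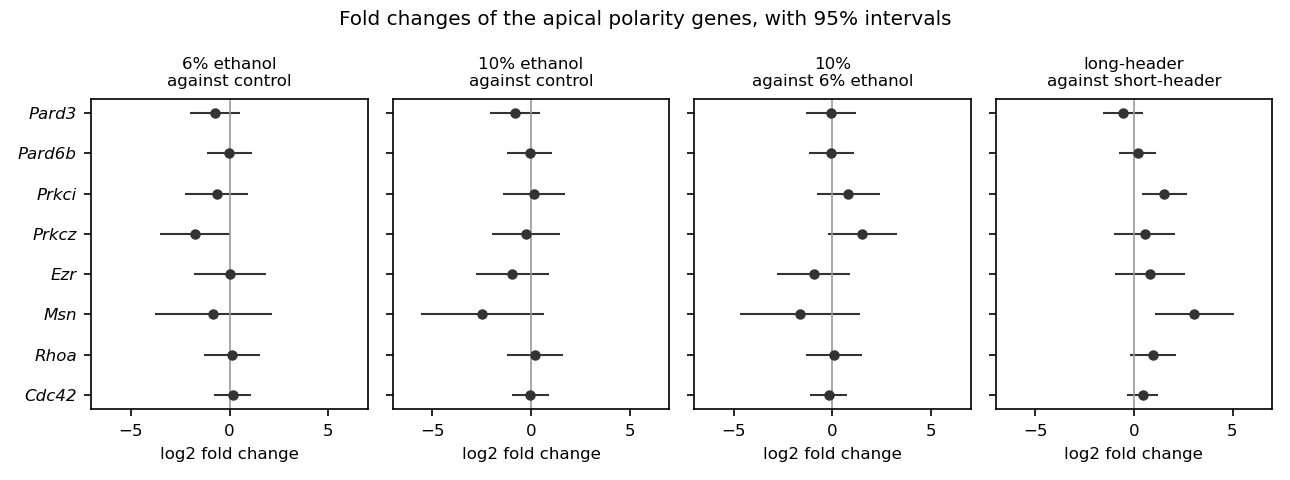
Log2 fold change of each of the 8 genes (points) with its 95% interval from edgeR (bars) in the 3 comparisons of sire groups and between header forms with group as a term. In the sire comparisons each interval covers 0, and between header forms those of Prkci (0.39 to 2.70) and Msn (1.05 to 5.08) do not, before adjustment over all genes.

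The 8 genes were also compared between the header forms of the count column, and edgeR with its filter on low counts called none. With group as a term, 7 of the 8 genes had higher fitted values in long-header libraries, with a median log2 fold change of 0.69, beside 46.8 percent of tested genes below 0 and a median of 0.10. Prkci had 279 ± 63.1 CPM (SD, n = 4) where the header was long and 128 ± 103 (n = 5) where it was short. Its log2 fold change was 1.54 ± 0.53, with an adjusted p of 0.230 by edgeR, 0.0571 by DESeq2 and 0.0426 by edgeR with no filter on low counts. Without 6% ethanol 1 the value was 0.73 (adjusted p = 0.897), and without control 2 it was 2.18 (adjusted p = 0.154), so its size rested in part on single libraries. Msn had 9.10 ± 9.62 and 1.64 ± 0.966 CPM, and a log2 fold change of 3.07 ± 0.92 with an adjusted p of 0.189 by edgeR and 0.00741 by DESeq2, and from 0.178 to 0.667 by edgeR when each library was left out in turn. Rhoa had 323 ± 66.5 and 180.5 ± 118 CPM (0.96 ± 0.53, adjusted p = 0.417). Pard3 alone was fitted lower in long-header libraries, at -0.56 ± 0.47. Of the 8, edgeR called 0 here, where 0.104 percent of tested genes were (0.04 higher, 0.0641 lower), and 14.8 percent had an unadjusted p under 0.05. DESeq2 called 1027 of 12488 genes, Msn among them. With no filter, edgeR called 504 of 26610, Prkci among them. The header forms overlapped for each of the 8, and lay apart for 9.08 percent of tested genes (4.31 higher, 4.77 lower). The lowest value of 7 of the 8 genes was in a short-header library, and the highest of 5 of the 8 in a long-header one. Short-header libraries were 5 of the 9, and the shares over all tested genes were not counted. Depth and header form went together, and their parts in these differences cannot be told apart.

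Of 67 further polarity genes found in the files, in 6 lists, 57 were tested, and edgeR called none in any direction in the comparisons of sire groups. In the lists, 34 of 57 had a log2 fold change below 0 at 6% ethanol (median -0.53), 31 of 57 at 10% (median -0.07) and 24 of 57 between the doses (median 0.21). Over all tested genes, 50.5, 52.9 and 50.5 percent were below 0 in the same order. The lists were chosen with earlier results of these data known.

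Among the partners of the PAR complex and the Crumbs complex, 5 of 7 were below 0 at 6% and 4 of 7 at 10% ethanol. Crb3, the small transmembrane Crumbs protein of epithelia, had 19.9 ± 8.65 CPM in controls, 13.6 ± 15.9 at 6% and 43.0 ± 30.7 at 10% ethanol. Its log2 fold change between the doses was 1.66 ± 0.93 (adjusted p = 0.806). Mpp5, which encodes the Crumbs scaffold PALS1, had 37.5 ± 41.3 CPM in controls and 23.3 ± 9.03 at 6% ethanol, with 85.0 CPM in control 2 alone. Patj, the PALS1-associated junction protein, had 6.83 ± 3.90 CPM in controls and 12.2 ± 15.0 at 10% ethanol.

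Of 11 basolateral genes, 5 were below 0 at 6% and 4 at 10% ethanol. Mark2, a PAR1 kinase that keeps PAR3 from the basolateral side, had 145, 95.4 and 39.6 CPM in controls and 64.2, 12.9 and 14.5 with 6% ethanol (-1.61 ± 0.74, adjusted p = 0.800). Its lowest values, like those of Prkci, were in the short-header libraries of the 6% group. Dlg5, a scaffold of the discs large family, stood at 550.1 CPM in 6% ethanol 2, while the rest of that group had 11.2 and 23.7. Lin7c, a small scaffold that joins PALS1, had 194 ± 44.0 CPM in controls, 374 ± 92.9 at 6% and 199 ± 75.2 at 10% ethanol. The 10% libraries lay below the 6% ones without overlap, as 3.62 percent of tested genes did (-0.91 ± 0.45, adjusted p = 0.806). The 6% libraries also lay above all controls, as 3.38 percent of tested genes did (0.94 ± 0.45, adjusted p = 0.802 by edgeR). Stk11, the PAR4 kinase LKB1, had 85.2, 51.7 and 40.9 CPM in controls and 103, 84.0 and 84.7 with 10% ethanol. Mark4, another PAR1 kinase, had 5.64 ± 4.27 and 13.8 ± 7.91 CPM.

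Llgl1, a basolateral scaffold that atypical PKC phosphorylates, was among the genes whose pattern was nearest to that of Prkci. The root mean square difference was 0.26 after centring, over 9 libraries, where the median over 6843 candidate genes was 1.29. Llgl1 had 128, 114 and 84.3 CPM in controls, 153, 21.7 and 27.9 with 6% ethanol, and 125, 202 and 77.4 with 10% ethanol. In both genes 6% ethanol 2 and 3 were the lowest libraries. Slc8b1, a mitochondrial sodium and calcium exchanger, was nearer still (0.25).

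For the other members the nearest genes were mostly ones with no listed tie to polarity. They were Tln2 (0.28) and Dicer1 (0.31) for Pard3, and Rab3il1 (0.28) and Hdlbp (0.28) for Pard6b. Yif1a (0.40) lay nearest to Prkcz, and those of Cdc42 were Ciao2a (0.15) and Rtf2 (0.21). Prep (0.33) and Enpep (0.36) lay nearest to Rhoa, and Crot (0.46) and Czib (0.52) to Ezr. Mbnl2 (0.72) and Krt18 (0.88) lay nearest to Msn, and both had their highest value in control 2. Mbnl2, a splicing regulator, stood at 194 CPM there and at 2.95 to 27.2 CPM elsewhere.

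Of the ERM relatives, scaffolds and kinases, 4 of 6 were below 0 at each dose. Slc9a3r1, the scaffold NHERF1 that binds ezrin, had 35.4, 15.3 and 27.3 CPM in controls, 11.2, 1.14 and 2.96 with 6% ethanol, and 6.00, 5.18 and 4.99 with 10% ethanol. Both ethanol groups lay below the lowest control, as 4.72 percent of tested genes did at 6% and 3.67 percent at 10%. The values of 6% ethanol 2 and 3 stand for 6 and 27 counts, and that of 10% ethanol 3 for 44. Slc9a3r1 had a log2 fold change of -2.33 ± 0.97 at 6% (adjusted p = 0.799) and -2.27 ± 0.97 at 10% (0.9999), with the same controls in both. Slk, an ERM kinase, had 20.9 ± 0.864 CPM in controls and 11.5 ± 11.6 at 6% ethanol. Nf2, the ERM-related tumour suppressor merlin, had 75.3 ± 80.8 and, at 10% ethanol, 63.1 ± 11.4 CPM.

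Of the switches and effectors that act with Cdc42 and RhoA, 13 of 25 were below 0 at 6% and 14 of 25 at 10% ethanol. Arhgef1, an exchange factor that turns on RhoA, had 31.5, 33.3 and 14.2 CPM in controls, 8.61, 3.99 and 7.02 with 6% ethanol, and 23.4, 26.6 and 15.0 with 10% ethanol. The 6% libraries lay below those of both other groups. Against control 4.72 percent of tested genes were lower at 6% without overlap, and 6.05 percent were higher at 10% than at 6%. Its log2 fold change was -2.00 ± 0.75 at 6% ethanol (adjusted p = 0.799) and 1.72 ± 0.74 between the doses (0.806). Cdc42bpb, the Cdc42-binding kinase MRCK beta, had 19.7, 11.7 and 38.0 CPM in controls, 10.5, 2.47 and 1.75 with 6% ethanol, and 34.0, 10.1 and 17.7 with 10% ethanol. Arhgef2, another exchange factor for RhoA, had 38.7, 35.0 and 11.8 CPM in controls and 6.36, 3.79 and 0.907 with 10% ethanol, without overlap (-2.94 ± 0.96, adjusted p = 0.9999). Iqgap1, a Cdc42-binding scaffold, had 293 ± 34.2 CPM in controls and 154 ± 19.5 at 10% ethanol, also without overlap (-0.93 ± 0.50). Like Arhgef2 and Iqgap1, 3.67 percent of tested genes lay below all controls at 10% ethanol. In 6% ethanol 2 and 3 the values stand for 21 and 64 counts of Arhgef1 and 13 and 16 of Cdc42bpb. That of Arhgef2 in 10% ethanol 3 stands for 8 counts.

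All 6 tested non-muscle myosin genes were below 0 at 6% ethanol, with a median of -0.85, and 5 of 6 at 10%. Of all tested genes, 50.5 and 52.9 percent were below 0 in these comparisons. The 6 included Myl12b, at -0.08, and Myh14, with 3.84 CPM in controls and 0.141 at 6% ethanol. Myh9, the heavy chain of myosin IIA, had 103, 71.9 and 41.8 CPM in controls, 28.7, 19.2 and 20.2 with 6% ethanol, and 35.5, 46.6 and 45.1 with 10% ethanol. The 6% libraries lay below all others, with a log2 fold change of -1.67 ± 0.57 against control (adjusted p = 0.799 by edgeR). Of all tested genes, 4.72 percent lay below control at 6% ethanol without overlap. Between the doses, 6.05 percent lay higher at 10% ethanol without overlap. Myl6, a light chain, had 222, 289 and 121 CPM in controls, 97.5, 103 and 105 with 6% ethanol, and 92.9, 182 and 79.7 with 10% ethanol. Myh10, the heavy chain of myosin IIB, had 108 ± 15.8 CPM in controls and 63.5 ± 22.9 at 10% ethanol.

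Tfap2c and Tead4 encode transcription factors that, with RhoA activity, bring on polarization in the mouse embryo. Tead4 had 136, 110.3 and 58.0 CPM in controls, 140.5, 186 and 111 with 6% ethanol, and 204, 169 and 161 with 10% ethanol. The 10% libraries lay above the controls, as 4.40 percent of tested genes did, with a log2 fold change of 0.81 ± 0.47 (adjusted p = 0.9999). Tfap2c had 215.4, 283 and 98.5 CPM in controls, 212, 31.2 and 100.2 with 6% ethanol, and 326, 334 and 133 with 10% ethanol. It had 289 ± 55.9 CPM with the long header form and 116 ± 66.9 with the short (1.29 ± 0.44, adjusted p = 0.229), the same order of header forms as for Prkci and Rhoa.

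Between header forms edgeR called none of the 57 list genes. Of these, 39 were above 0 and 18 below, beside 46.8 percent of all tested genes below 0. Rock1, a kinase that RhoA turns on, had 16.1 ± 2.29 CPM in long-header libraries, below all short-header ones at 59.7 ± 24.1, opposite in order to Rhoa (-1.79 ± 0.54, adjusted p = 0.190 by edgeR). Of all tested genes, 4.77 percent were lower in long-header libraries without overlap. Cdc42se1, a small Cdc42 effector, had 89.5 ± 13.8 and 40.3 ± 34.1 CPM, and Llgl2 had 23.9 ± 4.52 and 8.96 ± 8.94 CPM. Pard6g had 43.4 ± 18.7 and 14.5 ± 26.6 CPM, with a log2 fold change of 5.94 ± 1.59 and an adjusted p of 0.152. That fitted value depends on libraries with no or few counts.

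**Figure D5:**
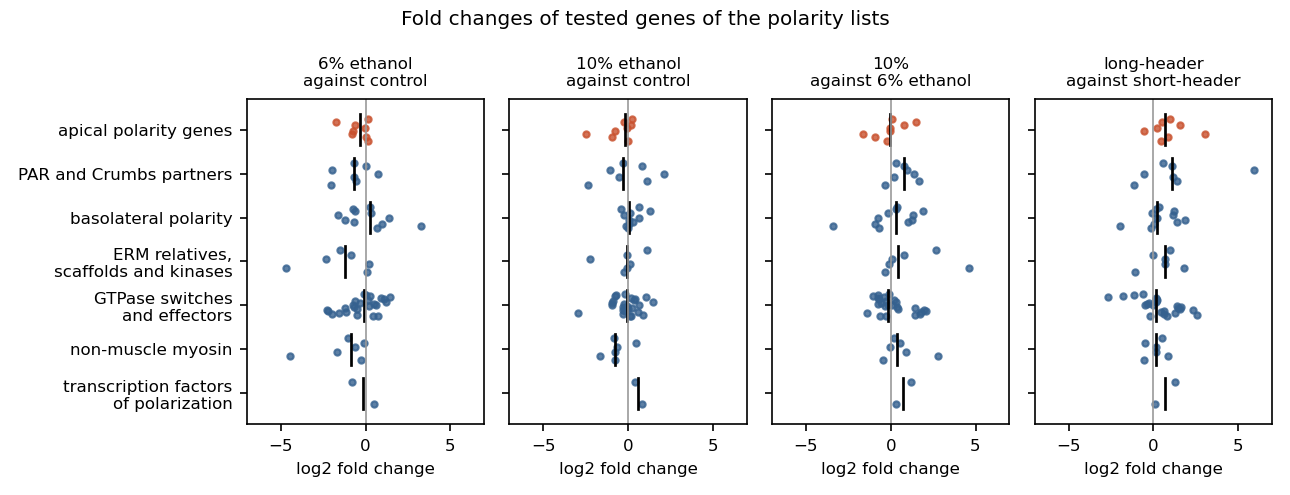
Log2 fold change of each tested gene (points) with the median of its list (black line), for the 8 apical polarity genes (red) and 6 further polarity lists (blue), in the 3 comparisons of sire groups and between header forms. At 6% ethanol the points of the myosin list all lie below 0, with a median of -0.85, and between header forms 7 of the 8 apical polarity genes lie above 0. Over all tested genes, 50.5 percent lie below 0 at 6% ethanol and 46.8 percent between header forms.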

How the data were processed

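Total RNA of morulae was sequenced, and the authors deposited 1 file of raw counts per gene for each of 9 libraries, made with featureCounts on GRCm39 per the submitters' processing notes, which also name DESeq2. The aligner is named in 4 file headers (RNA STAR). Versions, annotation and strand setting are not given in the sources used here, so genes with near copies or overlapping neighbours carry uncertain counts.

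Genes were filtered with filterByExpr by group, leaving 12488. After TMM scaling, edgeR 4.0.16 (R 4.3.3) fitted its quasi-likelihood model to the 9 libraries together, with a coefficient per group, Benjamini-Hochberg adjustment over all tested genes and a threshold of 0.05. Header form was tested with group as a covariate. Standard errors came from the fold change and its F statistic. Libraries totalled 6263465 to 27619281 counts; intervals on counts are exact Poisson. CPM use TMM factors, except marker sums on full totals. Lengths are from GENCODE M21. The 36 pairs of libraries differed by more than counting noise (lowest chi-square per degree of freedom 116, on genes whose counts in a pair summed to 10 or more), so none was taken for a second deposit of another. This does not show that they come from separate animals. Replicates are numbered in accession order.

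Named genes were the 8 members, the 2 genes per comparison and list that had the smallest p among those at 10 CPM in a group, and the 2 genes nearest to each member in log2 CPM (prior count 2). Of the latter, 1 is not reported here. Pard3b and Prkcz2 were named after their values were seen, as were further values of Rdx and Pard6g. The members and lists were chosen with earlier results of these data known. The tests were tried on simulated data, which does not show what differences of the 8 genes they could detect. Alternatives with limma 3.58.1 and DESeq2 1.42.0 are given under the limits.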

Additional observations from a re-analysis of the deposited data

How the results depend on the processing

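Members called stayed at 0 in 74 of 76 alternative fits. The exceptions were 1 member called between header forms by DESeq2 (Msn) and 1 with no filter on low counts (Prkci). Genes called over the whole table moved more. With no filter they were 140 at 6% ethanol, 47 at 10%, 147 between the doses and 504 between header forms. By DESeq2 they were 31, 10, 34 and 1027. Between header forms limma voom with quality weights called 304 and the stricter filter 7, against 13. Leaving out each library in turn gave 0 to 30 there, with 30 without control 1 and at most 1 otherwise. Within short-header libraries there were 48, 2 and 1 in the sire comparisons, and within long-header libraries 3, 9 and 4. The cause was not tested.

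Fold changes near 0 changed sign, and so did some farther from it. Among the latter, the fits over all 9 libraries gave -0.82 for Msn and -0.64 for Prkci at 6% ethanol. They gave -0.95 for Ezr between the doses and 0.54 for Prkcz between header forms. The Prkci value was 0.70 within long-header libraries. On library size alone, which moved the median of all genes at 6% ethanol to -0.28, at 10% to -0.18 and between the doses to 0.13, the values were -0.31 for Ezr, -0.10 for Rhoa and -0.10 for Cdc42 at 6% ethanol, and 0.16 for Pard3 and 0.11 for Pard6b between the doses. A term for header form gave 0.0067 for Pard6b and 0.021 for Msn at 6%, -0.73 for Prkci and -0.30 for Rhoa at 10%, and 0.10 for Pard3 and -0.31 for Rhoa between the doses. Leaving out each library in turn gave, at 6% ethanol, -1.06 to 0.45 for Ezr, -1.86 to 1.63 for Msn, -0.33 to 0.44 for Pard6b and -0.28 to 0.53 for Rhoa. At 10% it gave -0.31 to 0.28 for Cdc42, -0.36 to 0.39 for Pard6b, -0.19 to 0.53 for Prkci, -0.55 to 0.53 for Prkcz and -0.22 to 0.60 for Rhoa. Between the doses it gave -0.46 to 0.13 for Cdc42, -1.76 to 0.12 for Ezr, -0.44 to 0.27 for Pard3, -0.33 to 0.26 for Pard6b and -0.33 to 0.49 for Rhoa. Between header forms it gave -0.24 to 0.71 for Pard6b and -0.39 to 1.07 for Prkcz.

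On the median transcript length the levels were 329 CPM per kilobase for Rhoa, 280.2 for Prkci, 19.2 for Pard3 and 39.6 for Prkcz, and on the longest protein-coding transcript, an alternative added after the data were seen, 127 for Rhoa. Short annotated fragments make the first of these lengths small. Where a group had 1 library within a header form, it is assumed to vary like the others. No paired analysis was possible because replicate numbers come from accession order and pair nothing.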
